A study of Homo sapiens with 6 samples.

Results

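The genes of respiratory complex I were taken as every gene symbol of the table that starts with NDUF, which gave 48 of 19223 symbols, and each symbol was represented by its transcript of highest mean value across all 6 libraries. By their known roles, 37 of the 48 encode subunits of complex I and 8 encode assembly factors (NDUFAF), while 3 belong to neither class (NDUFA4, NDUFA4L2 and the read-through symbol NDUFC2-KCTD14). Bulk RNA was sequenced from LoVo cells, an established line of human colorectal adenocarcinoma, in 3 Control libraries and 3 DCC-2036 libraries. Control cells were given vehicle without DCC-2036, and the others were given 2.5 μM DCC-2036 (rebastinib), a tyrosine kinase inhibitor, with 48 h of treatment in the labels of both groups. The comparison asked how RNA for complex I subunits and for the proteins that build the complex differed with the inhibitor. Nothing beyond the numbered labels says that the libraries came from separate cultures, so the p-values measure only the spread between these samples, which may be technical.

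Complex I is the entry point of electrons from NADH into the respiratory chain of the inner mitochondrial membrane, and it couples their passage to ubiquinone with the pumping of protons. Its matrix arm oxidises NADH and carries flavin and iron-sulfur clusters, and its membrane arm holds the proton pumps. Core subunits do the catalysis, accessory subunits surround and stabilise them, and assembly factors bind the intermediates without remaining in the finished enzyme. The core subunits of the membrane arm are encoded by mitochondrial DNA, and those genes were not analysed here. In colorectal cancer cells, complex I feeds both ATP synthesis and the recycling of NAD+ that growing cells need.

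Each value is a depth-adjusted signal per transcript as deposited, and the number of reads behind it is unknown. The column totals were 38997229, 39956227 and 40587145 in Control, against 43279603, 45957597 and 48023306 with DCC-2036, so every DCC-2036 total was above every Control total. The labelled cell type was checked on fixed marker lists. Of 9 epithelial and intestinal markers, 7 reached a value of 10 in at least 3 libraries, with the keratin KRT8 the most abundant. VIL1 stayed at or below 4.12 in every library, and CEACAM5 was listed at 0 in all but Control_2. The summed epithelial signal was 104483 to 114998 in the Control libraries and 148337 to 188447 in the DCC-2036 libraries, a difference carried mostly by KRT8 (mean 59932 in Control and 108240.0 with DCC-2036), and its part in the results below was not tested. Of the 7 tested markers, KRT8, CDH1, KRT18 (0.37) and EPCAM (0.29) were higher without overlap, with KRT8 and CDH1 called, KRT20 was called lower (-1.15, limma adjusted p = 0.00427), and KRT19 (0.04) and CDX2 (-0.09) overlapped. Of 5 leukocyte markers only CD68 passed, and the defining marker PTPRC was at 0 in all 6 libraries. The summed leukocyte signal was 226, 265 and 257 in Control, against 209.6, 244 and 286 with DCC-2036. COL1A1 led the 6 fibroblast markers, of which 2 passed, with sums of 439.9, 412 and 369.6 in Control, against 516, 452 and 553 with DCC-2036. Endothelial markers summed to at most 41.3 in any library, and VWF was the only 1 of 4 that passed.

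Promoter sequences from RefSeq (build GRCh38.p14), each running from 250 bases before to 50 bases after a gene's start, were searched on both strands for the letters of 4 motifs tied to nuclear genes for respiration. These were GCGCA, any 1 base and GCGC in a run for NRF1, CCGGAAG for ETS factors such as GABPA, AAGATGGC for YY1 and GGGGCGG for a GC box, and a match is only a description of the letters. Of the 37 subunits, 32 had a promoter in the table. The YY1 letters were held by 7 of them (21.9%), against 6.46% of 9917 tested genes with a promoter and 3.52% of all 27305 genes of the promoter table. The NRF1 letters were held by 6 of the 32 (18.8%, against 13.2% of tested genes and 6.98% of all), and the ETS letters by 5 (15.6%, against 22.3% and 12.2%). The GC box was present in 11 (34.4%), against 59.4% of tested genes and 34.4% of all. Among the 9 subunits called higher that had a promoter, NDUFS4 was the only 1 with the YY1 letters and NDUFA12 the only 1 with the NRF1 letters, while NDUFB7 and NDUFS3 held the ETS letters. Of 7 assembly factors with a promoter, NDUFAF8 held the YY1 letters, NDUFAF5 the NRF1 letters, and NDUFAF4 and NDUFAF8 the ETS letters. Those without a matched entry included NDUFAF6, NDUFB5, NDUFB9, NDUFC2, NDUFS5, NDUFA4 and NDUFA4L2.

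The YY1 letters are shown because they recur at a like place in these genes. In all 7 subunits they lay on the coding strand. They began 10 to 25 bases after the start, within the first bases of the transcript. The letters include ATG, the letters of a start codon, and whether translation begins there was not tested. In NDUFAF8 they began 9 or 16 bases after the start, depending on which listed start was used. A further listed start of NDUFAF8 held no such letters, and neither did another listed start of NDUFB8. Of the 641 tested genes with these letters, 411 (64.1%) had them at or after the start, and 363 had them there on the coding strand. The stretches of 30 bases below are written 5′ to 3′ with the YY1 letters in capitals, from NDUFS4 chr5:53560649-53560678 (plus strand), NDUFA6 chr22:42090729-42090758 (minus strand), NDUFA7 chr19:8321343-8321372 (minus strand), NDUFA9 chr12:4649113-4649142 (plus strand), NDUFS7 chr19:1383913-1383942 (plus strand), NDUFA3 chr19:54102865-54102894 (plus strand), NDUFB8 chr10:100529836-100529865 (minus strand), and NDUFAF8 chr17:81239316-81239345 (plus strand).
NDUFS4: ttgcctgcagcAAGATGGCggcggtgtcaa
NDUFA6: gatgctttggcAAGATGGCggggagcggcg
NDUFA7: atcgcggacggAAGATGGCgtccgccaccc
NDUFA9: gattgtgggaaAAGATGGCggctgccgcac
NDUFS7: aggccgaggccAAGATGGCggtgctgtcag
NDUFA3: ccgcggagacaAAGATGGCtgcgagtaagt
NDUFB8: tgaagaaggtgAAGATGGCggtggccaggg
NDUFAF8: aggacggacctAAGATGGCggcctccaggg
With DCC-2036, NDUFS4 was called higher, NDUFAF8 was called lower and the others were not called. Of the others, NDUFA7 (0.49), NDUFS7 (0.31), NDUFA9 (0.16), NDUFA6 (0.14) and NDUFB8 (0.07) had log2 fold changes above 0, and NDUFA3 (-0.15) below it. Whether the letters have a part in these values was not tested.

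Upstream sequence is also shown for the subunit with the highest log2 fold change as deposited, NDUFA12, and for the assembly factor with the lowest, NDUFAF1. Both stretches lie outside the annotated gene, at chr12:95003771-95003947 (minus strand, 177 bases) and chr15:41402520-41402746 (minus strand, 227 bases), 5′ to 3′, with any match in capitals.
NDUFA12: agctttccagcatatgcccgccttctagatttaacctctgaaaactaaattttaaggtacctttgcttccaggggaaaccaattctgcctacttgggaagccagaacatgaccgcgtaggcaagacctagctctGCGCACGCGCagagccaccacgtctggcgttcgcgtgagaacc
NDUFAF1: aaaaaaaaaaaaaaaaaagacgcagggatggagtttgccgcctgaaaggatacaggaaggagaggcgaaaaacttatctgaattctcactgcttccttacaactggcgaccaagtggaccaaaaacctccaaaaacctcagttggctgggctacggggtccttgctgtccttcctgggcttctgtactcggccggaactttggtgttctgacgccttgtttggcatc
The NDUFA12 stretch holds 1 match to the NRF1 letters, and the NDUFAF1 stretch holds none of the 4 motifs.

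With DCC-2036, RNA of complex I subunits shifted upward in part, and single subunits moved in both directions. A gene was called at an adjusted p-value under 0.01 in limma, run on log2(value + 1) over all 12725 symbols that reached 10 in 3 or more libraries, with Benjamini-Hochberg adjustment. All 48 NDUF symbols passed this filter (NDUFA4L2 through the DCC-2036 libraries alone), and SE below is the standard error of a log2 fold change. Of the 37 subunits, 12 were called higher (32.4%), whereas 19.2% of all tested genes were called higher, and 3 were called lower (8.11%), whereas 22.7% of all tested genes were called lower. The other 22 were not called, and in both directions together 41.9% of all tested genes were called. In these bulk samples, fewer cells of a type and less RNA per cell cannot be told apart. Values of 19 subunits were higher in all 3 DCC-2036 libraries than in any Control library, and those of 6 were lower in all 3, while 12 overlapped. Across all tested genes, 32.9% were higher and 38.1% lower without overlap (71.1% together). The median log2 fold change of the subunits was 0.26, with a range of -1.15 to 1.44, beside -0.09 for all tested genes. An exact permutation test of 3 libraries against 3 cannot give a p-value below 0.1.

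The size of this shift depended on the scaling and on transcript properties, whereas its sign did not. When all libraries were scaled to equal totals, the median of all tested genes moved from -0.09 to -0.29 and that of the subunits from 0.26 to 0.06, with 7 subunits called higher (18.9%, against 13.1% of all tested genes) and 5 lower (13.5%, against 27.0%). That scaling lost the calls of NDUFA5, NDUFV1, NDUFB9, NDUFS5 and NDUFAB1, and the median of ratios lost that of NDUFS8. Over all genes, equal totals called 1671 higher and 3441 lower, in place of 2442 and 2887. Relative to all tested genes, the subunit median was 0.35 above, a distance that scaling whole libraries leaves nearly as it is by construction. After a trend with GC content and transcript length was removed, an alternative chosen after seeing the data, the subunit median was 0.06, or 0.15 above all tested genes, with 8 of 36 subunits called higher (22.2%, near the 20.1% of all genes in that fit) and 6 lower (16.7%, against 23.9%). The excess of higher calls was thus mostly absent under this setting. The counts also changed when 1 library was left out. Without DCC-2036_2, 2 subunits were called higher and 0 lower by limma, compared with 3 and 3 without Control_1, 3 and 0 without Control_2, and 5 and 0 without Control_3, while 13 and 4 were called without DCC-2036_1 and 9 and 3 without DCC-2036_3. Over all genes, 928 were called higher and 1708 lower without DCC-2036_2, so calls were fewer across the whole table as well. The share of subunits called higher, beside that of all tested genes, was 5.41% and 7.39% without DCC-2036_2, 8.11% and 8.41% without Control_1, 8.11% and 7.97% without Control_2, and 13.5% and 7.89% without Control_3. It was 35.1% and 21.3% without DCC-2036_1, and 24.3% and 19.8% without DCC-2036_3. The share of all tested genes called lower was 12.7%, 12.1% and 12.1% without Control_1, Control_2 and Control_3 and 13.6% without DCC-2036_2. The subunit share was thus above that of all genes in 4 of these 6 fits, by little in 1 of them, and below it in 2.

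**Figure D1:**
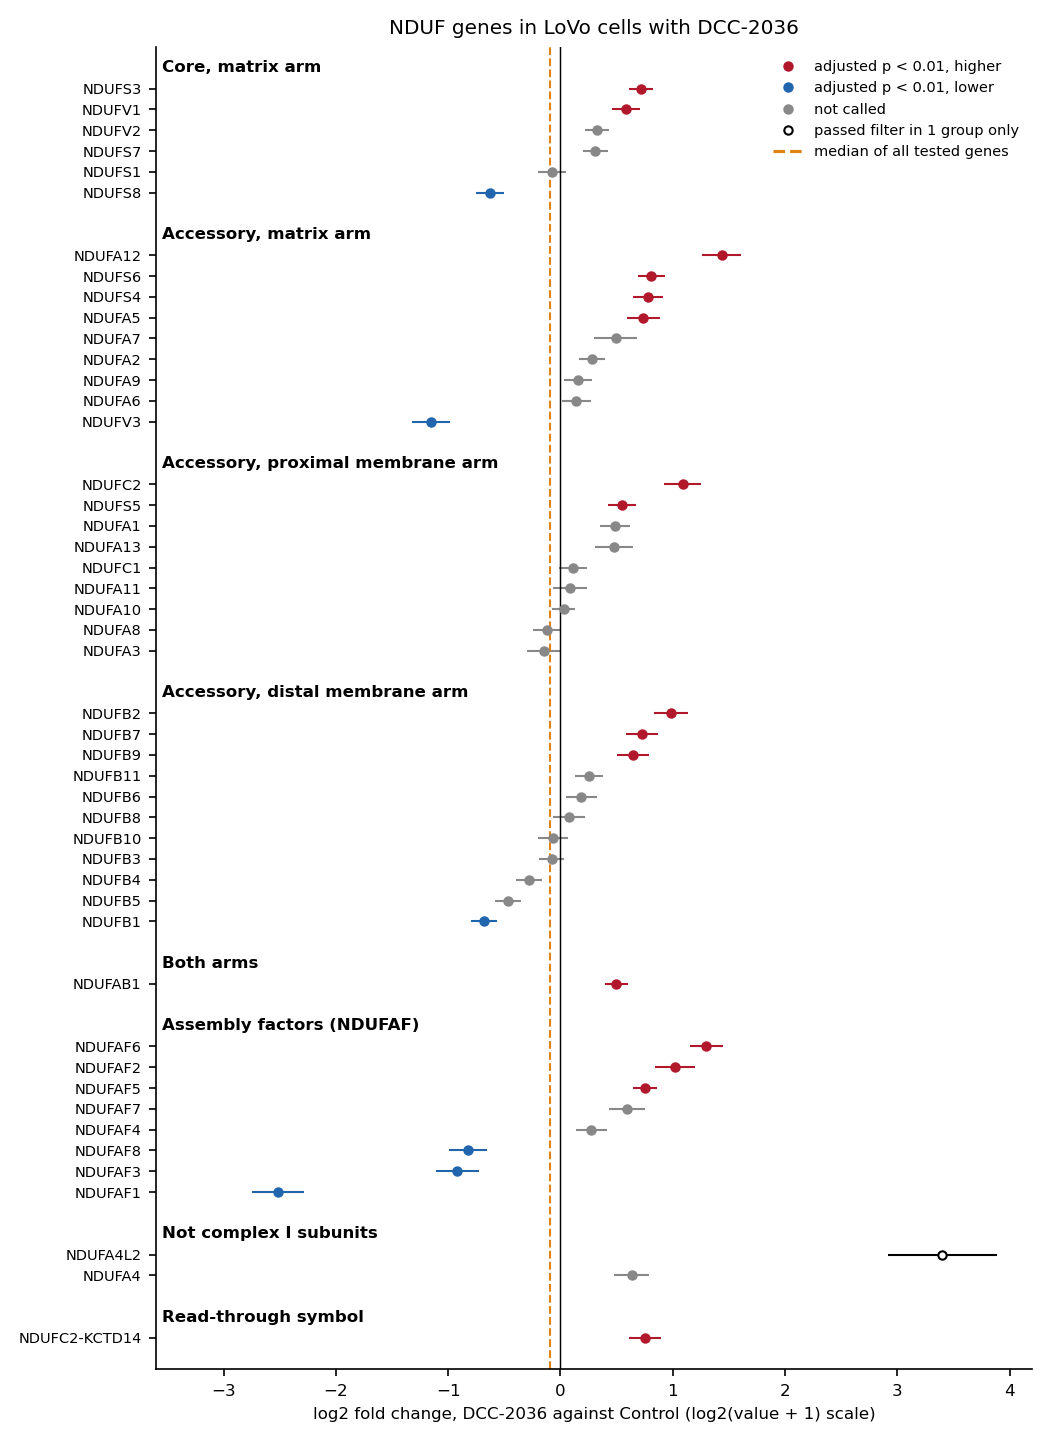
Log2 fold change of NDUF genes, DCC-2036 against Control (horizontal axis, log2(value + 1) scale), with bars of 1 standard error and genes grouped by place in complex I. Red points were called higher, blue points lower and grey points were not called, the open point of NDUFA4L2 passed the filter in 1 group only, and the dashed line is the median of all tested genes (-0.09). NDUFAF1 (-2.51) and NDUFA4L2 (3.40) lie farthest from 0.

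Among the accessory subunits of the matrix arm, 4 of 9 were called higher (44.4%, against 19.2% of all tested genes) and 1 was called lower (11.1%, against 22.7%). Their median log2 fold change was 0.49 as deposited, 0.29 with equal totals, 0.23 after removal of the GC and length trend and 0.31 without Control_1. NDUFA12, which takes the place of the assembly factor NDUFAF2 late in assembly, had values of 344, 389 and 415 with vehicle and 832, 1043 and 1274 with DCC-2036. All 3 DCC-2036 libraries lay far above the Control libraries, and DCC-2036_3 was the highest. Its log2 fold change of 1.44 (SE 0.18, limma adjusted p = 0.00104) was the highest of the 37 subunits as deposited, and it was called in all 16 alternatives. After removal of the GC and length trend it was 0.95, below the 1.02 of NDUFC2. NDUFA12 lies at chr12:94897055-95003770 on the minus strand (GRCh38, GENCODE 29) and overlaps no other coding gene, and the NRF1 letters shown above stand upstream of it. NDUFS6, a zinc-binding subunit that joins late, had values of 806, 899 and 973 without DCC-2036, compared with 1445, 1562 and 1680.0 with it. The groups were widely separated, with a log2 fold change of 0.81 (SE 0.12, limma adjusted p = 0.00187). NDUFS4, whose loss causes Leigh syndrome, had values of 483, 538 and 519 with vehicle and 769, 881 and 1015 with DCC-2036. No DCC-2036 value reached down to the Control values (log2 fold change 0.78, SE 0.13, limma adjusted p = 0.00304).

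NDUFA5, another matrix arm subunit, had values of 634, 668 and 585 without DCC-2036, compared with 887, 1041 and 1248 with it. Its groups did not overlap either, and the log2 fold change was 0.74 (SE 0.15, limma adjusted p = 0.00598). The annotation names 12 pseudogenes of NDUFA5, and how reads shared with such copies were assigned is not given in the sources used here, so its level is uncertain. NDUFV3, an accessory subunit beside the NADH-binding site, went the other way, with values of 505, 525 and 549 with vehicle and 299.5, 227 and 193 with DCC-2036. Every DCC-2036 library was below every Control library, and DCC-2036_3 was the lowest. NDUFV3 fell to 45.6% of the Control mean, with a log2 fold change of -1.15 (SE 0.17, limma adjusted p = 0.00200), the lowest of the subunits as deposited; after removal of the GC and length trend it was -1.12, above NDUFB1 at -1.37. With 1 library left out, the log2 fold change of NDUFV3 lay between -1.32 and -1.01, that of NDUFS6 between 0.74 and 0.87, that of NDUFS4 between 0.68 and 0.88 and that of NDUFA5 between 0.61 and 0.86. The calls of NDUFV3, NDUFS6, NDUFS4 and NDUFA5 were lost without Control_2 or without DCC-2036_2, those of NDUFV3, NDUFS4 and NDUFA5 also without Control_3, and those of NDUFS4 and NDUFA5 also without Control_1. After removal of the GC and length trend the value of NDUFS4 was 0.27 and was not called. The other 4 accessory subunits of this arm, NDUFA2, NDUFA6, NDUFA7 and NDUFA9, had log2 fold changes of 0.14 to 0.49 and were not called.

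Of the 7 nuclear-encoded core subunits, all in the matrix arm, 2 were called higher (28.6%, against 19.2% of all tested genes) and 1 lower (14.3%, against 22.7%). NDUFS3, which lies next to the ubiquinone-binding region, had a mean of 1515 in Control and 2489 with DCC-2036. Values were higher in all 3 DCC-2036 libraries, and its log2 fold change was 0.72 (SE 0.11, limma adjusted p = 0.00209). NDUFV1, which binds NADH and the flavin, had a mean of 1799 ± 131 in Control and 2707 ± 313 with DCC-2036 (SD, n = 3 each). These groups were also apart, with a log2 fold change of 0.59 (SE 0.13, limma adjusted p = 0.00767). NDUFS8, a core subunit that carries iron-sulfur clusters, had values of 1298, 1532 and 1605 with vehicle and 875, 1010 and 973 with DCC-2036. It was lower in all 3 DCC-2036 libraries, at 64.4% of the Control mean (log2 fold change -0.63, SE 0.12, limma adjusted p = 0.00544). NDUFV2 and NDUFS7 lay above 0 (0.33 and 0.31) without overlap and were not called, and NDUFS1 (-0.07) overlapped.

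Core subunits of 1 enzyme that are present in equal numbers thus had RNA values that were called in opposite directions, with NDUFS3 and NDUFV1 higher and NDUFS8 lower. Calls of this class were often lost when 1 library was left out, with fewer libraries in those fits. NDUFS3 was not called without Control_1, without Control_2 or without DCC-2036_2 (log2 fold changes of 0.65, 0.73 and 0.72), and NDUFS8 was not called without Control_2, Control_3 or DCC-2036_2 (-0.60, -0.57 and -0.67). NDUFV1 was called without DCC-2036_1 alone among the 6 fits with 1 library left out, with values of 0.51 to 0.68 over these fits. NDUFS3 overlaps CELF1, KBTBD4 and PTPMT1 in the annotation, and the assignment of reads in shared stretches is not given in the sources used here.

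In the proximal part of the membrane arm, 2 of 9 accessory subunits were called higher by limma (22.2%, near the 19.2% of all tested genes) and 0 lower (22.7% of all). NDUFC2 had values of 1344, 1620.0 and 1655 with vehicle and 2728, 3292 and 3856 with DCC-2036. Its lowest DCC-2036 value was far above its highest Control value, and the log2 fold change was 1.09 (SE 0.16, limma adjusted p = 0.00199), a call that held in all 16 alternatives. The read-through symbol NDUFC2-KCTD14, which shares sequence with NDUFC2, was called as well (log2 fold change 0.75, limma adjusted p = 0.00433), and reads of the 2 symbols may not be separable. NDUFS5 rose by 0.55 on the log2 scale (limma adjusted p = 0.00956), and its call was lost with all left-out libraries other than DCC-2036_1 and with equal totals. NDUFS5 has 6 named pseudogenes, and its value after removal of the GC and length trend was 0.04. NDUFA1 (0.49) and NDUFA13 (0.48) were higher without overlap and not called, and NDUFA3, NDUFA8, NDUFA10, NDUFA11 and NDUFC1 overlapped, with log2 fold changes of -0.15 to 0.11. The median of the 9 was 0.11 as deposited, -0.09 with equal totals, 0.19 with the median of ratios, 0.05 with the upper quartile, 0.04 after removal of the GC and length trend, 0.04 without Control_1 and 0.22 without DCC-2036_1.

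In the distal part of the membrane arm, which NDUFB proteins surround, 3 of 11 were called higher (27.3%, against 19.2% of all tested genes) and 1 lower (9.09%, against 22.7%). The median log2 fold change of 0.07 turned to -0.13 with equal totals and to -0.16 after removal of the GC and length trend. It was also below 0 without DCC-2036_3 (-0.04). With the upper quartile it was 0.0063, and with the median of ratios 0.15. Without Control_1 it was 0.0073, without Control_3 0.12 and without DCC-2036_1 0.18. NDUFB2 had values of 639, 764 and 769 without DCC-2036, compared with 1201, 1476 and 1651 with it. It stood apart in all 3 DCC-2036 libraries, at 199% of the Control mean (log2 fold change 0.99, SE 0.15, limma adjusted p = 0.00233). Its call was lost without Control_1 (0.90) and without DCC-2036_2 (0.96), and the gene overlaps ADCK2 and BRAF in the annotation. NDUFB7 (0.72, limma adjusted p = 0.00539) and NDUFB9 (0.65, limma adjusted p = 0.00881) were also called higher, but neither call held without Control_1, Control_2, Control_3 or DCC-2036_2, where NDUFB7 lay between 0.64 and 0.78 and NDUFB9 between 0.57 and 0.71, and the call of NDUFB9 was also lost without DCC-2036_3 (0.55). After removal of the GC and length trend NDUFB2 was 0.58 and NDUFB9 0.40, both called, and NDUFB7 was 0.33 and not called. NDUFB1, a small subunit of the membrane arm, had values of 155, 169 and 194 with vehicle and 107, 104 and 109 with DCC-2036. The DCC-2036 values were close to each other and below all Control values (log2 fold change -0.68, SE 0.12, limma adjusted p = 0.00302).

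NDUFB5 had values of 724, 857 and 823 without DCC-2036, compared with 536, 615 and 586 with it, with no overlap and no call (log2 fold change -0.47, limma adjusted p = 0.0126). NDUFB4 had values of 1287, 1517 and 1522 with vehicle and 1136, 1156 and 1260.0 with DCC-2036, again lower in all 3 DCC-2036 libraries and not called (log2 fold change -0.28, limma adjusted p = 0.0695). With equal totals both were called lower, at -0.66 and -0.48. NDUFB4 has 12 named pseudogenes, so its level is uncertain. The call of NDUFB1 was lost without Control_2, Control_3 or DCC-2036_2 (-0.70, -0.60 and -0.67). NDUFB11 (0.26) was higher without overlap, and NDUFB3, NDUFB6, NDUFB8 and NDUFB10 overlapped. After removal of the GC and length trend NDUFB1 was -1.37, NDUFB5 -0.79, NDUFB4 -0.52 and NDUFB3 -0.80 (-0.08 as deposited), all called lower. NDUFAB1, the mitochondrial acyl carrier protein found in both arms, had a mean of 2101 ± 104 (SD, n = 3) in Control and 2968 ± 149 (SD, n = 3) in DCC-2036 and was called higher (log2 fold change 0.50, limma adjusted p = 0.00567). Its value was 0.30 with equal totals and 0.18 after removal of the GC and length trend, where the call was lost, as it also was without Control_1, Control_2, Control_3 or DCC-2036_2 (0.46 to 0.53).

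**Figure D2:**
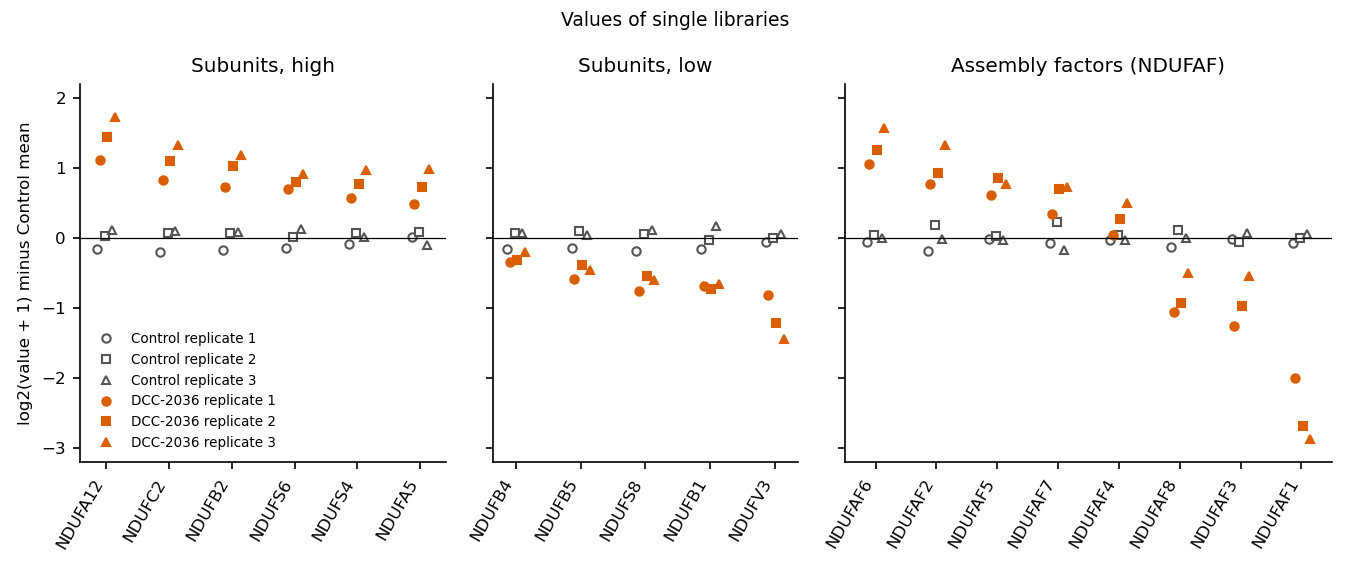
Values of single libraries for 6 subunits with high and 5 with low log2 fold changes and the 8 NDUFAF genes, as log2(value + 1) minus the Control mean of each gene (vertical axis). Open grey marks are Control libraries and filled orange marks are DCC-2036 libraries, with a circle, a square and a triangle for replicates 1, 2 and 3. NDUFAF4 is the only gene drawn whose groups overlap.

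Libraries of the DCC-2036 group differed among themselves. DCC-2036_3, which has the largest column total, held the highest value of 24 of the 37 subunits, and Control_1, which has the smallest, held the lowest value of 20. The median change of the subunits against the Control mean was 0.19, 0.27 and 0.36 in DCC-2036_1, DCC-2036_2 and DCC-2036_3, and the same medians in Control were -0.14, 0.05 and 0.10. Every DCC-2036 library was thus above every Control library. The spread among subunits also differed, with an interquartile range of 0.57 in DCC-2036_1, 0.66 in DCC-2036_2 and 0.78 in DCC-2036_3. The part of the column totals in these differences between libraries was not tested.

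The NDUFAF assembly factors split between both directions. Of the 8, 3 were called higher and 3 lower (37.5% each, whereas 19.2% and 22.7% of all tested genes were), and 7 of 8 had values without overlap (71.1% of all tested genes did). NDUFAF1, which builds the proximal membrane arm as part of the mitochondrial complex I intermediate assembly complex, had values of 239, 251 and 259.6 without DCC-2036, compared with 62.1, 38.0 and 33.3 with it. All 3 DCC-2036 libraries fell to a small part of the Control level, with a mean of 17.8% of it. The log2 fold change was -2.51 (SE 0.23, limma adjusted p = 0.000445), the lowest among the NDUF symbols, and it was called in all 16 alternatives. NDUFAF1 lies at chr15:41387349-41402519 on the minus strand (GRCh38, GENCODE 29), overlaps no other coding gene and has no named pseudogene. Its 1 transcript in the table is the source of these values.

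NDUFAF3, which acts with NDUFAF4 on the early intermediate around the ubiquinone site, had values of 859, 833 and 914 with vehicle and 362, 444 and 599 with DCC-2036. Its groups were well apart, with a log2 fold change of -0.92 (SE 0.19, limma adjusted p = 0.00655). NDUFAF4 itself had values of 559, 587 and 558 without DCC-2036, compared with 585, 684 and 806 with it. Here DCC-2036_1 lay just below Control_2, so the groups overlapped and the gene was not called (log2 fold change 0.27, limma adjusted p = 0.127). NDUFAF8, the partner of NDUFAF5, had values of 264, 313 and 287 with vehicle and 138, 151 and 204 with DCC-2036. All DCC-2036 values were below the Control values (log2 fold change -0.82, SE 0.17, limma adjusted p = 0.00650). NDUFAF5, which modifies an arginine of the core subunit NDUFS7, had values of 204, 209.9 and 201 without DCC-2036, compared with 315, 373 and 351 with it. It was higher in all 3 DCC-2036 libraries (log2 fold change 0.75, SE 0.11, limma adjusted p = 0.00160). The partners NDUFAF5 and NDUFAF8 were thus called in opposite directions.

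NDUFAF2, the paralogue of NDUFA12 that holds its place during assembly, had values of 249, 321 and 281 with vehicle and 486, 542 and 714 with DCC-2036. It was higher in every DCC-2036 library, as its paralogue was (log2 fold change 1.02, SE 0.18, limma adjusted p = 0.00344), and its value was 0.60 after removal of the GC and length trend. NDUFAF6, needed for an early step of the membrane arm, had values of 175, 188 and 182 without DCC-2036, compared with 379, 438 and 542 with it. The groups were far apart, and the log2 fold change of 1.30 (SE 0.15, limma adjusted p = 0.000852) was called in all 16 alternatives. NDUFAF7, a protein arginine methyltransferase, had values of 174, 215 and 162 with vehicle and 232, 298 and 302 with DCC-2036. Its groups did not overlap, but it was not called (log2 fold change 0.59, limma adjusted p = 0.0184). With the median of ratios as scaling, NDUFAF3 (-0.84) and NDUFAF8 (-0.74) lost their calls, which left 1 assembly factor called lower.

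Leaving out 1 library changed these counts too. Without each of Control_1, Control_2, Control_3 and DCC-2036_2, 1 NDUFAF gene was called lower, and 1 was called higher without Control_3. Without Control_1 or DCC-2036_2, 2 were called higher. NDUFAF3 was not called without Control_1, Control_2, Control_3 or DCC-2036_2 (-0.95 to -0.88), and NDUFAF8 only remained called without DCC-2036_3 among the fits with 1 library left out (-0.99 to -0.71 over all 6). NDUFAF2 lost its call without Control_1 (0.93), Control_3 (1.02) or DCC-2036_2 (1.06), and NDUFAF5 without Control_3 (0.74). NDUFAF3 overlaps DALRD3, NDUFAF6 overlaps CCNE2 and TP53INP1, and NDUFAF7 overlaps CEBPZ and PRKD3, so reads in shared stretches may not be separable.

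Set side by side, assembly factors and subunits had medians above 0 and differed in their spread. The median log2 fold change was 0.43 for the 8 assembly factors and 0.26 for the 37 subunits, a difference of -0.18 for subunits minus assembly factors. In single libraries this difference was -0.01, -0.22 and -0.26 in DCC-2036 and -0.08, -0.0005 and 0.10 in Control, so the groups overlapped, and no test over the members was made. The interquartile range of the log2 fold changes was 1.67 for the assembly factors, 0.66 for the subunits and 1.23 for all tested genes. In absolute size, the median was 0.87 for the assembly factors, 0.47 for the subunits and 0.60 for all tested genes. Both medians stayed above 0 in all 3 other scalings, in which the assembly factor median was 0.24 to 0.51.

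Assembly factors without the NDUF prefix were mostly lower. Of 12 such genes, 7 were called lower (58.3%, whereas 22.7% of all tested genes were) and 1 was called higher, with a median log2 fold change of -0.99. The same 7 were called lower in each of the 16 alternatives, and the median stayed between -1.19 and -0.89. FOXRED1, a flavoprotein of late assembly, had values of 664, 659 and 635 without DCC-2036, compared with 243, 211 and 156 with it (log2 fold change -1.70, limma adjusted p = 0.000608). TMEM70, which acts in the assembly of complex I and of ATP synthase, had values of 1131, 1075 and 935 with vehicle and 345, 389 and 397 with DCC-2036 (-1.47, limma adjusted p = 0.000326). OXA1L, which inserts proteins into the inner membrane, went from a mean of 1982 ± 87.3 to 754 ± 85.1 (SD, n = 3 each). In all 3 genes every DCC-2036 library was below every Control library.

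TIMMDC1 (-1.35), a membrane arm factor, TMEM186 (-1.08) and ACAD9 (822 ± 6.11 to 413 ± 32.8, SD, n = 3 each), members of the same intermediate assembly complex as NDUFAF1, and DMAC2 (-0.99), listed as ATP5SL, were the others called lower. ECSIT, a further member of that complex, had values of 1008, 1091 and 1171 without DCC-2036, compared with 799, 676 and 430.4 with it, without overlap and not called (log2 fold change -0.82, limma adjusted p = 0.0212). TMEM126B, also a member, overlapped (-0.09). COA1, also placed in that complex, was the 1 gene called higher (0.50, limma adjusted p = 0.00466). Its call was lost with equal totals, without a filter on low values, with a replicate block and after removal of the GC and length trend. The call was also lost without Control_1, Control_2, Control_3 or DCC-2036_2. The remaining 2 genes were not called and overlapped.

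**Figure D3:**
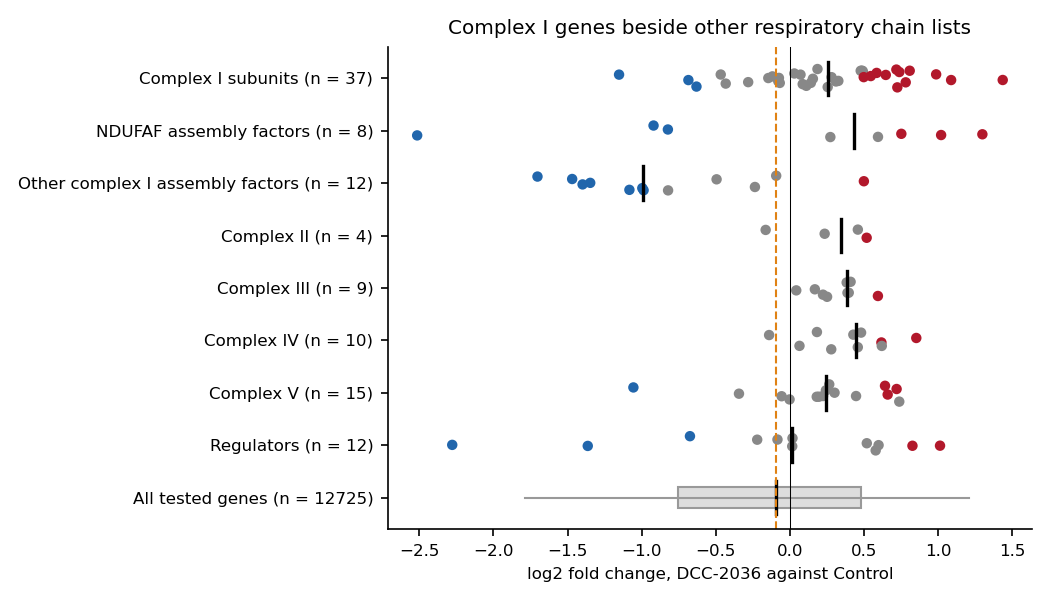
Log2 fold change of single genes, DCC-2036 against Control (horizontal axis), for complex I subunits, both lists of complex I assembly factors, nuclear-encoded subunits of complexes II to V and regulators. Each point is a gene (red called higher, blue called lower, grey not called), black bars are list medians, and the box for all tested genes spans the quartiles. Medians lie at 0.26 for subunits and -0.99 for the assembly factors without the NDUF prefix.

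The nuclear-encoded subunits of the other respiratory complexes gave a median close to that of complex I. Over 38 genes of complexes II to V, the median log2 fold change was 0.29, with 7 called higher (18.4%, near the 19.2% of all tested genes) and 1 lower (2.63%, against 22.7%). The medians were 0.35 for 4 genes of complex II, 0.38 for 9 of complex III, 0.44 for 10 of complex IV and 0.24 for 15 of complex V. With equal totals the median of the 38 was 0.09, and after removal of the GC and length trend it was 0.09 over 37 genes. Their interquartile range of 0.29 lay below the 0.66 of the complex I subunits, a difference that was not tested. The genes called higher were SDHB of complex II, UQCRFS1 of complex III, COX4I1 and COX6C of complex IV, and the ATP synthase genes listed as ATP5A1, ATP5B and ATP5L. By limma, 0 of these 7 were called without Control_1, without Control_2, without Control_3 or without DCC-2036_2, and 11 genes of the list were called higher without DCC-2036_1. ATP5G1, which like ATP5G2 and ATP5G3 encodes the c subunit of the ATP synthase rotor, was called lower. It had values of 1119, 1302 and 1337 without DCC-2036, compared with 576, 639.5 and 588 with it (log2 fold change -1.06, limma adjusted p = 0.000706). ATP5G2 (-0.34, mean 1891 in Control and 1487 with DCC-2036) was lower without overlap and not called. The most abundant of these genes, ATP5G3 (0.20, mean 3844 in Control and 4387 with DCC-2036), was higher without overlap and not called.

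NDUFA4 and NDUFA4L2 carry the NDUF prefix but are not complex I subunits. NDUFA4, now placed in complex IV, had values of 1125, 1197 and 1119 with vehicle and 1488, 1740.0 and 2184 with DCC-2036. It was higher in all 3 DCC-2036 libraries and not called (log2 fold change 0.64, limma adjusted p = 0.0125). Its paralogue NDUFA4L2, known as a gene that hypoxia induces, had values of 4.66, 8.003 and 5.50 without DCC-2036, compared with 36.6, 68.4 and 149 with it. All Control libraries were under 10 and all DCC-2036 libraries above it, so the gene passed the filter only through the group where it was high and had to differ. Its log2 fold change of 3.40 is therefore given as a description without a test, and adding 1 to each value makes the change of low values smaller. NDUFA4L2 overlaps SHMT2 in the annotation, and the share of reads between them is uncertain.

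Of 13 regulators of nuclear genes for respiration, 12 were tested. Among these, 2 were called higher (16.7%) and 3 lower (25%), near the 19.2% and 22.7% of all tested genes. Their median log2 fold change was 0.02. It turned to -0.18 with equal totals, to -0.05 with the upper quartile and to -0.0014 without DCC-2036_2. In other settings it was higher, at 0.10 with the median of ratios and 0.10 after removal of the GC and length trend. Without Control_2 the median was 0.03, without DCC-2036_1 0.06 and without DCC-2036_3 0.04, and without Control_3 it was 0.0073. PPARGC1B, a coactivator of mitochondrial genes, rose from a mean of 419 ± 31.5 to 845 ± 43.1, SD with n = 3 each (log2 fold change 1.01, limma adjusted p = 0.000660). The 1 regulator that was not tested had no value above 1.03. ESRRA, the nuclear receptor that works with these coactivators, went from 1399 ± 86.1 to 545 ± 68.2 (SD, n = 3 each) and was called lower (-1.36, limma adjusted p = 0.000457). GABPB2 (-2.28), a partner of the ETS factor GABPA, and TFB1M (-0.67), a methyltransferase for mitochondrial ribosomal RNA, were also called lower. TFB2M (0.83), a factor of mitochondrial transcription, was called higher. GABPB2 had means of 136 in Control and 27.6 with DCC-2036. The more abundant listed partner of GABPA, with means of 503 in Control and 509 with DCC-2036, overlapped (0.02). TFB2M lost its call with equal totals, the upper quartile and a pseudocount of 0.1, and TFB1M with the median of ratios. Both lost it without a filter on low values, with a replicate block, and without any 1 library other than DCC-2036_1. Of the factors whose letters were searched in the promoters, NRF1 overlapped between the groups (-0.08), YY1 was higher without overlap and not called (0.58, limma adjusted p = 0.0447), and so was GABPA (0.60, limma adjusted p = 0.0612).

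**Figure D4:**
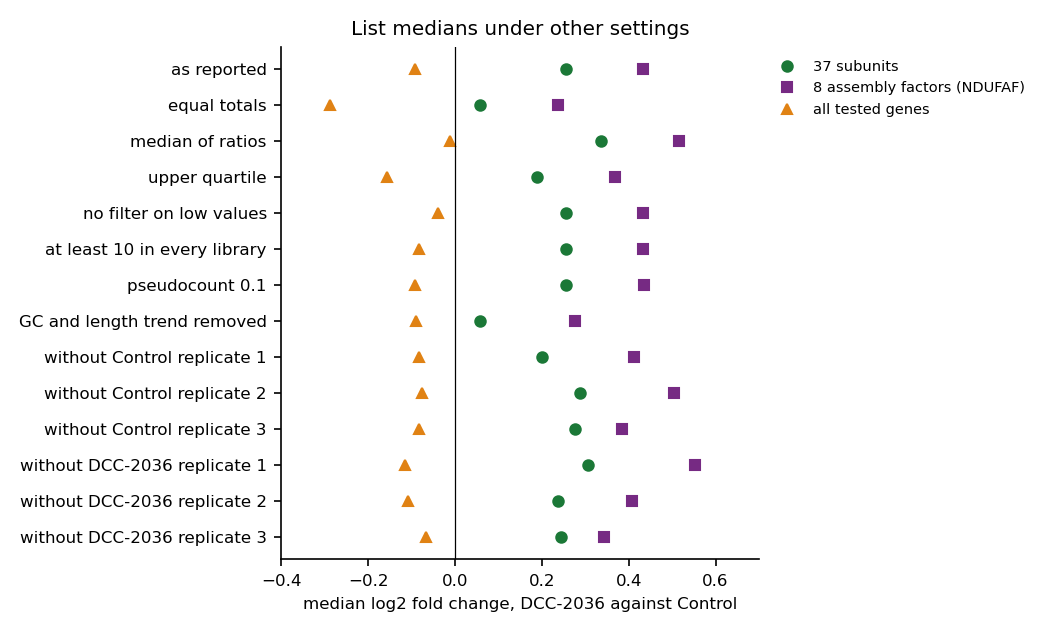
Median log2 fold change (horizontal axis) of the 37 subunits (circles), the 8 NDUFAF genes (squares) and all tested genes (triangles) as deposited and under other settings, including each library left out. Subunit medians lie between 0.06 and 0.34 in the settings drawn, above the median of all tested genes in each.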

How the data were processed

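Libraries were assigned to groups by sample title. The authors deposited 1 signal value per RefSeq transcript and library (45006 transcripts), adjusted for depth by a method not given in the sources used here, as are aligner, counting and build; the deposited log2 fold changes, p-values and q-values were not used. The labels state 48 h, and a figure legend of the paper a shorter time. The values are not counts, so limma 3.58.1 (R 4.3.3) was run on log2(value + 1), two-sided, without covariates. Members, lists and motifs were chosen with earlier results of these data known. Named are NDUF genes, called context genes and up to 3 others per context list. The code was tested on simulated data. Locations came from GENCODE 29. Alternatives were 3 scalings, 2 filters, a pseudocount of 0.1, a replicate block, a limma trend, an adjusted p limit of 0.05, every transcript, wider membership and each library left out. Removal of a GC and length trend (values for 96.6% of tested genes) was added after seeing the data. Python 3.11.15 (pandas 2.3.3, numpy 2.4.6, matplotlib 3.10.9) was used.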

Additional observations from a re-analysis of the deposited data

How the results depend on the processing

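Of 46 genes followed (subunits, NDUFAF genes and NDUFA4) over 16 alternatives, 35 kept their direction in all. All 21 called genes did, and 4 of the 21 stayed called in all (NDUFA12, NDUFC2, NDUFAF1 and NDUFAF6), while 10 stayed called in all alternatives that use the 6 libraries. Over these genes and alternatives, 600 values held, 93 lost and 21 gained a call, and 21 changed sign. NDUFA4L2, which passed the filter through 1 group only, is not counted, and NDUFA6 had no GC and length value. The cause of the changes was not tested.

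Equal totals gave 7 subunits higher and 5 lower and medians of 0.0568 (subunits), 0.24 (NDUFAF) and -0.29 (all tested). With the median of ratios, 1 NDUFAF gene was lower and the median of all tested genes was -0.0113; with the upper quartile that median was -0.16. Without a filter, 6 subunits were higher, 1 NDUFAF gene lower, and the median of all tested genes -0.0402. At an adjusted p limit of 0.05, 5 subunits were lower. Removal of the GC and length trend gave 6 subunits lower and medians of 0.0568 (subunits) and 0.28 (NDUFAF). With every transcript as its own row, 26 subunit transcripts were higher, and 5 NDUFAF transcripts were higher and 6 lower.

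The genes that changed sign had small changes and were not called in either setting. With equal totals these were NDUFA6 (-0.0567), NDUFA9 (-0.0430), NDUFA10 (-0.17), NDUFA11 (-0.11), NDUFC1 (-0.0874), NDUFB6 (-0.0120) and NDUFB8 (-0.13). With the median of ratios they were NDUFS1 (0.0073), NDUFB3 (0.0030) and NDUFB10 (0.0132), and with the upper quartile NDUFA10 (-0.0353). After removal of the GC and length trend they were NDUFA2 (-0.0876), NDUFA11 (-0.25), NDUFC1 (-0.0545), NDUFB6 (-0.0658) and NDUFB8 (-0.16). With 1 library left out, the ranges that crossed 0 were NDUFA10 -0.0230 to 0.0913, NDUFA11 -0.0006 to 0.22, NDUFB8 -0.0394 to 0.18, NDUFB10 -0.16 to 0.0434 and NDUFS1 -0.16 to 0.0106.

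With 1 library left out, genes called higher ranged from 928 to 2675 and lower from 1514 to 3507, subunits called higher from 2 to 13 and lower from 0 to 4, and NDUFAF genes called higher from 1 to 4 and lower from 1 to 3. Fewer libraries enter these fits. Medians ranged from 0.20 to 0.31 (subunits), 0.34 to 0.55 (NDUFAF) and -0.11 to -0.07 (all tested).

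Over all tested genes, deviations of same-numbered libraries correlated at 0.081, -0.035 and -0.003, which cannot show whether the libraries were paired. The subunit medians rose with replicate number in both groups (-0.14, 0.05 and 0.10 in Control, and 0.19, 0.27 and 0.36 with DCC-2036). With a replicate block, 1202 genes were higher and 1909 lower, 7 subunits higher and 1 lower, and 1 NDUFAF gene lower. The depth of single libraries is unknown, so counting error cannot be separated from other spread.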

Other observations

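Other transcripts of the same genes moved alike. Of the 48 NDUF symbols, 26 had more than 1 tested transcript, and in all 26 every transcript of a symbol had the same sign, although transcripts of a gene share reads and are not independent. Log2 fold changes ran from 1.18 to 1.44 over the 2 transcripts of NDUFA12, from 0.74 to 0.75 over the 6 of NDUFA5 and from -0.99 to -0.92 over the 4 of NDUFAF3. The 2 transcripts of NDUFV3 lay farther apart, at -1.15 and -0.81, and both were called lower.

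The 48 genes lie on 22 chromosomes in GENCODE 29. In that annotation, 23 overlap another coding gene and 19 have named pseudogenes, 59 in all.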
